A study of Mus musculus with 11 samples.

Results

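The 77 genes described here encode proteins of the mitochondrial ribosome. They were taken as every protein-coding mouse gene whose symbol is Mrpl or Mrps followed by a number, which marks the large (Mrpl) and the small (Mrps) subunit. Of 78 such genes in the annotation, 77 were matched by ID to the count files, out of 37583 IDs in all, and Mrpl33 was not analysed here. The large subunit had 48 of the genes and the small subunit 29. The grouping follows the symbols, although structures of the mammalian mitoribosome place the products of Mrps30 and Mrps18a in the large subunit, and the product of Mrps36 is now known mainly as a part of the 2-oxoglutarate dehydrogenase complex.

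Mitochondria translate the few proteins encoded in their own genome, all of them core parts of the respiratory chain and ATP synthase, on ribosomes of their own. The ribosomal RNAs of these particles come from mitochondrial DNA, but every protein is encoded in the nucleus, made in the cytosol and imported. The small subunit reads the mRNA and the large subunit joins the amino acids. In mammals the new proteins are inserted straight into the inner membrane, whose characteristic lipid is cardiolipin. Tafazzin, encoded by Taz, remodels this lipid. Inherited TAZ defects underlie Barth syndrome, a disease of heart and skeletal muscle that often comes with neutropenia.

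The data were RNA sequencing counts from 11 clonal lines of granulocyte-monocyte progenitors, the precursors of neutrophils and monocytes, from C57BL/6 mice. The 5 tafazzin knockout (KO) lines were named 3H, 3I, 4J, 4K plus 4L, and the 6 wild-type (WT) lines 1A, 1B, 1C, 2D, 2E plus 2F. Each line is 1 clone, and values per clone below follow these orders. All 11, KO and WT alike, came from fetal liver at embryonic day 15.5, carried ER-Hoxb8 and grew in 0.5 uM beta-estradiol with about 50 ng/ml of stem cell factor, so no group here is free of the immortalising construct. ER-Hoxb8 is a fusion of the hormone-binding part of the estrogen receptor with the transcription factor Hoxb8, which keeps progenitors immature while the hormone is present. The number in a clone's name is 1 or 2 in WT and 3 or 4 in KO clones, and the sources used here do not say what it stands for. P-values therefore measure the spread between clones, some of which may share a parent culture. Whether cells of a type were fewer or held less RNA each cannot be told apart in such bulk samples.

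The genes are spread over 17 chromosomes, none on X, with the most (11) on chromosome 11. Promoter windows from RefSeq (GRCm38.p6, from 250 bases before the annotated start to 50 after it) were matched for 68 of the 77. Shown first are the windows of the 4 genes whose KO and WT clones did not overlap, a choice made from those values. Mrpl34 lies on the plus strand (chr8:71464676-71464975), Mrps21 on the minus strand (chr3:95871465-95871764), Mrpl11 on the plus strand (chr19:4962056-4962355) and Mrpl27 on the plus strand (chr11:94653541-94653840). Capitals mark matches on either strand to the letters of 6 motifs, named below, and all sequences run 5′ to 3′ along the gene's strand.
Mrpl34: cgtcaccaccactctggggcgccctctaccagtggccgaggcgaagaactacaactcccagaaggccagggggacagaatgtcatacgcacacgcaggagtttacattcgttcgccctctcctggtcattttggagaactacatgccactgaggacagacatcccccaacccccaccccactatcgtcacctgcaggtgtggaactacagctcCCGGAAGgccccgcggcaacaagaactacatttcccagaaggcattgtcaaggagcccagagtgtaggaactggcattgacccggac
Mrps21: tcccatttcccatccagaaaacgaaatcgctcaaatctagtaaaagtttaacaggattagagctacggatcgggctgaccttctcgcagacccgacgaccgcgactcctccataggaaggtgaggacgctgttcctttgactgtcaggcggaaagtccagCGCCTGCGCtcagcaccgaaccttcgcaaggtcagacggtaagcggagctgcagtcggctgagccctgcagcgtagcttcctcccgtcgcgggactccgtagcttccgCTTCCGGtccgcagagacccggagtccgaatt
Mrpl11: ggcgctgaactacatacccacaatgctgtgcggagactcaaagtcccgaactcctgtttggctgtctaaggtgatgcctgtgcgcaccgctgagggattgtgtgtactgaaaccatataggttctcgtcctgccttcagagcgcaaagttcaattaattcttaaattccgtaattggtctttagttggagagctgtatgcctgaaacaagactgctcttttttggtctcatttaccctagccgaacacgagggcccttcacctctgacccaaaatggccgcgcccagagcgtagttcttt
Mrpl27: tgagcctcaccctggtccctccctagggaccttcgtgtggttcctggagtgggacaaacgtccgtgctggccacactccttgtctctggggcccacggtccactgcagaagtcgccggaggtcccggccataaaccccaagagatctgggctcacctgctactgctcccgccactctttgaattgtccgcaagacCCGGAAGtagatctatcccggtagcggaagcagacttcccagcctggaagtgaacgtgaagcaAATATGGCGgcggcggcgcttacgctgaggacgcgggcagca

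The capitals in Mrpl34 are a match to GABPA letters that begins 37 bases before the start. In Mrps21 they are an NRF1 match beginning 90 bases before the start and a GABPA match beginning 18 bases after it. Mrpl27 holds a GABPA match beginning 55 bases before the start and a YY1 match beginning 8 bases after it, and the window of Mrpl11 holds none of the 6. NRF1 and GABPA are transcription factors known for acting on nuclear genes for mitochondria, YY1 binds many promoters of genes for translation, MYC drives growth genes and ATF4 serves the integrated stress response. A match is a description of the letters and not a site, and a window without one says nothing of the factor.

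Over the 68 genes with a window, GABPA letters (CCGGAAG) stood in 36.8%, against 21.5% of other genes tested for expression and 9.93% of all genes in the table. NRF1 letters (GCGCANGCG) stood in 23.5%, against 16.1% and 7.03%. YY1 letters (AANATGGCG) stood in 16.2%, against 6.46% and 2.76%. These 3 shares were each above those of both other sets, and the windows' median GC content was 58.8%, against 60.7% in other tested genes. MYC letters (CACGTG) stood in 7.35% of the 68, against 11.9% and 8.09%. TATA-box letters (TATAAA) also stood in 7.35%, against 8.01% and 15.7%. ATF4 letters (TGATGNAA) stood in 0 of the 68 windows, against 2.79% of other tested genes and 4.51% of all genes. By subunit, NRF1 letters stood in 28.6% of 42 large subunit windows and 15.4% of 26 small subunit windows, and GABPA letters in 33.3% and 42.3%. Matches of different motifs may overlap, and no test was made of these shares.

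A large and a small subunit gene start close together on opposite strands. Mrpl46 (minus strand, chr7:78783040-78783339) and Mrps11 (plus strand, chr7:78782881-78783180) have annotated starts 412 bases apart in the gene annotation, and their RefSeq windows share 141 bases, read on opposite strands. In the gene annotation both genes run past each other's start and share 173 exon bases (12.2% of Mrpl46, 7.97% of Mrps11). Counting ignored strand, so the levels of both are uncertain in that part. The windows are shown because both products belong to the mitoribosome.
Mrpl46: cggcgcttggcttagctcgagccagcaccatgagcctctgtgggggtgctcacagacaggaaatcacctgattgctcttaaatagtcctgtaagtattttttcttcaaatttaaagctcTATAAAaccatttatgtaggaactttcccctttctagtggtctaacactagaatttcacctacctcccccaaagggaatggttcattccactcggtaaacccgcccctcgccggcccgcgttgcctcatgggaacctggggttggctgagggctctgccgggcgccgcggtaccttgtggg
Mrps11: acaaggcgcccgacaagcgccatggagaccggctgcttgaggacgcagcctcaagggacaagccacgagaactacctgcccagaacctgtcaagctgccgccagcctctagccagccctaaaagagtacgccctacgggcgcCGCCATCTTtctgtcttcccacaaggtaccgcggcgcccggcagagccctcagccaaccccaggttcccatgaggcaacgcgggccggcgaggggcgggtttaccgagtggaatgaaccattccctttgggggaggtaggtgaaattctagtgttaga
The capitals are a TATA match in Mrpl46 and a YY1 match in Mrps11.

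Gene counts totalled 19778119 to 27431544 per clone. Of 11900 genes that passed a filter on low counts, 601 (5.05%) differed between KO and WT clones at an adjusted p under 0.05 by edgeR's quasi-likelihood test with Benjamini-Hochberg adjustment over all of them, the rule by which a gene is called below. In KO clones 328 (2.76%) were higher and 273 (2.29%) lower. Taz stood at 3.23 ± 0.685 CPM (counts scaled to library size) in KO clones and 39.1 ± 2.54 CPM in WT clones (SD, n = 5 and 6). The difference was -3.60 ± 0.14 on the log2 scale (± SE), with an edgeR adjusted p of 4.08e-07. The ranges of 2.21 to 4.09 CPM in KO and 37.0 to 43.8 CPM in WT clones did not overlap. Markers of granulocyte-monocyte progenitors summed to 13269 to 21167 CPM in KO and 14257 to 23466 CPM in WT clones, and all 11 passed the filter. Hepatocyte markers summed to at most 1.95 CPM. Sums of mast cell and basophil markers (2132 to 4899 CPM in KO, 1069 to 3892 CPM in WT), erythroid markers (761.8 to 1076 and 503.0 to 860.0 CPM) and B-lymphoid markers (4.22 to 27.4 and 24.1 to 43.9 CPM) overlapped between the genotypes. Macrophage markers (29.1 to 62.9 and 17.7 to 55.6 CPM) and megakaryocyte markers (110.4 to 236.3 and 62.2 to 219.9 CPM) did too.

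Of the 76 mitochondrial ribosomal protein genes tested, 2 were called lower in KO clones, Mrpl34 of the large and Mrps21 of the small subunit, and none was called higher. That count is close to the share of all tested genes called lower (2.29%), so it is no result about these genes as a group. The count was 0 without all clones of any title number, where 0.0641 to 0.976% of all tested genes were called lower. It was also 0 with counts summed over each title number, against 0.562% of all tested genes. Among the same 76, 11 were lower and 0 higher at an unadjusted p under 0.05. For KO against WT, the share of all tested genes at an unadjusted p is not given. Such counts here and below are therefore no result about any group of genes. DESeq2 called 5 lower and 0 higher, where it called 5.22% of all genes lower, and limma-voom 2 lower and 0 higher, against 2.08%. The share of all genes that DESeq2 called higher is not given. Its counts of higher genes here and below are therefore no result about any group of genes. With the title number as a random effect limma-voom called 9 lower, and 7.76% of all genes. The log2 fold changes (KO over WT) ran from -0.24 to 0.46, with a median of -0.06, against -0.01 for all tested genes. They were below 0 in 55 of 76 genes (72.4%), against 51.6% of all tested genes.

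Fold changes of both subunits covered overlapping ranges, and the difference between the subunits was not tested. Of 47 tested large subunit genes, 36 lay below 0 with a median of -0.06, and of 29 small subunit genes, 19 lay below 0 with a median of -0.04. Changes smaller than 0.1 on the log2 scale were found in 30 of 47 large and 22 of 29 small subunit genes. Standard errors ran from 0.03 to 0.23 with a median of 0.07. Without clone WT 2D the median was -0.02 and 47 of 76 genes lay below 0, and without KO 4K it was -0.04 with 51 below 0. Without WT 1A the median was -0.04 with 55 below 0. By subunit, the medians were -0.03 (large) and -0.01 (small) without WT 2D, -0.06 and -0.02 without WT 1A, and -0.04 and -0.03 without KO 4K. They were -0.10 and -0.04 without title number 1, and -0.05 and -0.01 without title number 4.

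**Figure D1:**
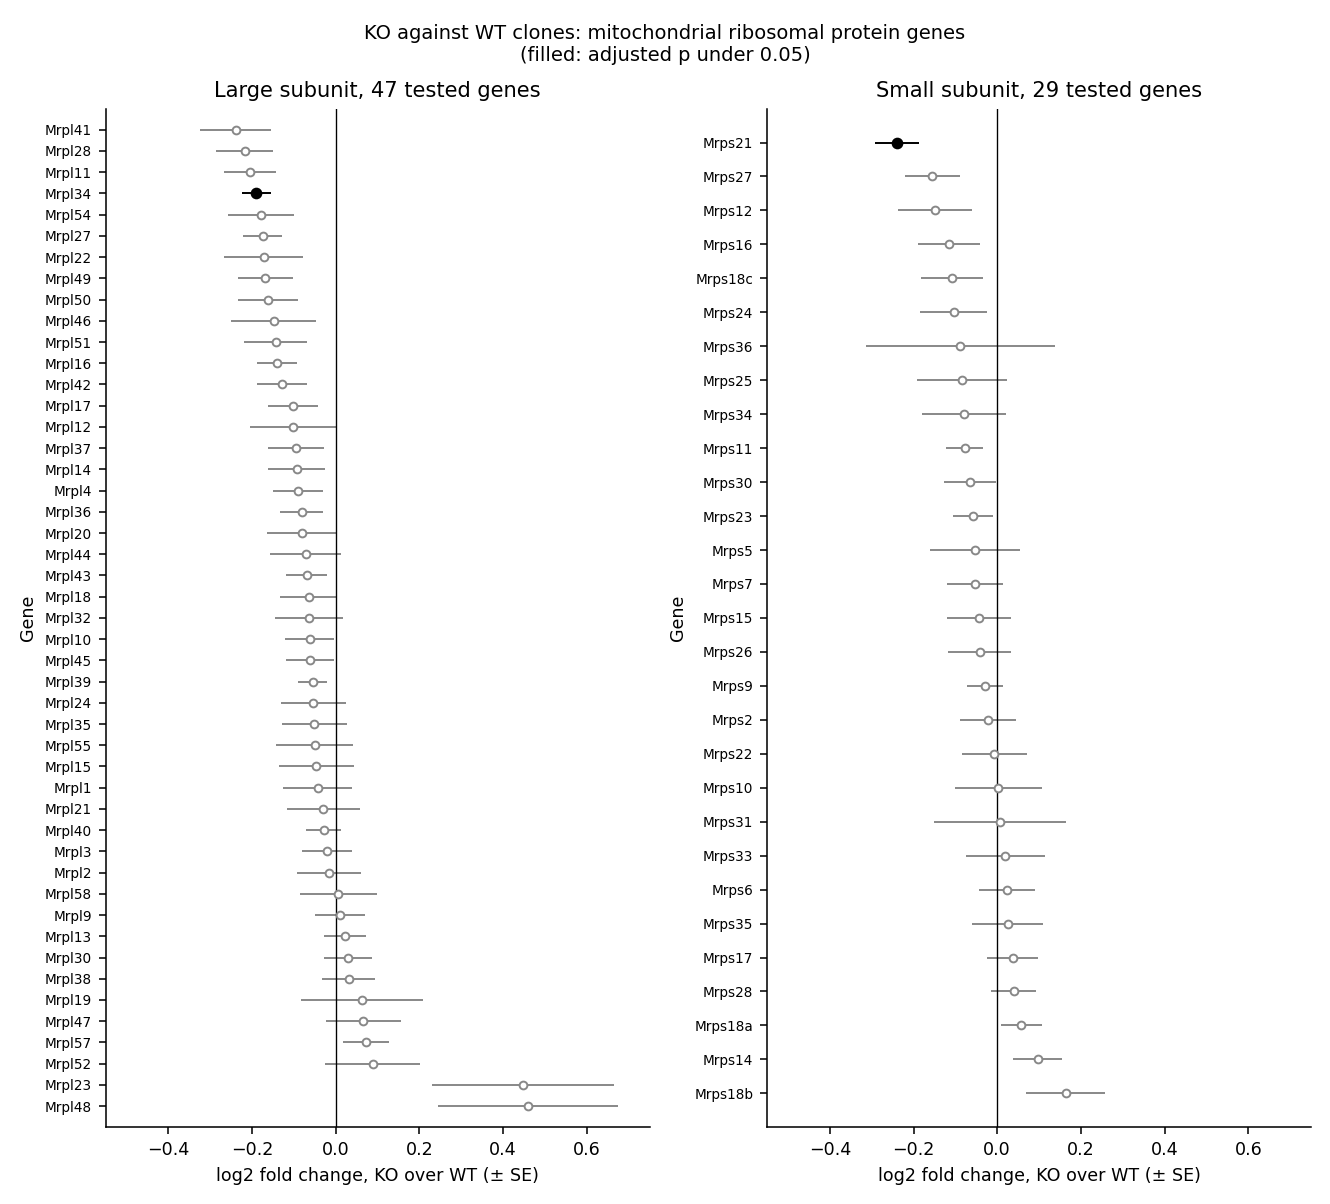
Log2 fold change of KO over WT clones (x axis, with its SE) for each tested gene of the large and the small subunit (y axis). Filled points are the 2 called genes, Mrpl34 and Mrps21, and most points lie between -0.24 and 0.10, with Mrpl23 and Mrpl48 far to the right at 0.45 and 0.46.

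The small protein encoded by Mrpl34 is the mitochondrial relative of bacterial ribosomal protein L34, part of the large subunit. Mrpl34 stood at 53.4, 55.9, 57.2, 53.3 and 56.7 CPM in KO clones, against 60.4 to 66.3 CPM with a median of 63.0 in WT clones. Every KO clone was below every WT clone. The mean was 55.3 ± 1.86 CPM in KO and 63.1 ± 1.94 CPM in WT clones (SD, n = 5 and 6), a fall of 12.3% (-0.19 ± 0.03 on the log2 scale ± SE, with an edgeR adjusted p of 0.0135). The call held when any 1 clone was left out (highest edgeR adjusted p = 0.0411) and ended without all clones of any title number. With those clones left out, which leaves fewer clones, the log2 fold change was -0.22 to -0.16.

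Mrps21 encodes the mitochondrial relative of bacterial S21, a small subunit protein. Mrps21 stood at 23.4, 21.5, 23.8, 25.3 and 22.9 CPM in KO clones, against 26.4 to 29.8 CPM with a median of 27.4 in WT clones. The groups did not overlap. The mean was 23.4 ± 1.40 CPM in KO and 27.6 ± 1.26 CPM in WT clones, a fall of 15.3% (-0.24 ± 0.05 on the log2 scale ± SE, with an edgeR adjusted p of 0.0290). The call ended in 7 of the 11 omissions of 1 clone (highest edgeR adjusted p = 0.0755) and held without 1C, 2D, 2E or 4K. The fold change stayed between -0.27 and -0.21 in these omissions, and the call also ended without all clones of any title number. With those clones left out, the fold change was -0.29 to -0.20.

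For 2 more large subunit genes every KO clone was below every WT clone without a call. Mrpl11 is the relative of the bacterial protein at the base of the stalk that recruits translation factors. Its level was 47.1, 49.3, 47.0, 42.9 and 50.7 CPM in KO clones, against 51.3 to 62.7 CPM with a median of 52.6 in WT clones (log2 fold change -0.21 ± 0.06, edgeR adjusted p = 0.0932). The highest KO and the lowest WT clone were nearly level. Mrpl27, whose bacterial relative reaches towards the site where amino acids are joined, stood at 19.81, 19.95, 18.83, 18.59 and 18.97 CPM in KO clones, against 20.7 to 23.2 CPM with a median of 21.5 in WT clones (-0.17 ± 0.05, edgeR adjusted p = 0.0579). Across all tested genes, 3.02% had KO clones wholly below WT clones and 2.97% wholly above, while 4 and 0 of the 76 did.

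Mrpl41 and Mrpl28 had fold changes as low as the called genes, with wider spread. Mrpl41, a mitochondria-specific large subunit protein, stood at 30.9, 30.5, 33.1, 30.5 and 35.5 CPM in KO clones, against 31.1 to 44.7 CPM with a median of 37.7 in WT clones (-0.24 ± 0.09, edgeR adjusted p = 0.142). Mrpl28, the relative of bacterial L28, stood at 64.2, 60.6, 70.9, 61.6 and 67.0 CPM in KO clones, against 69.7 to 86.9 CPM with a median of 72.5 in WT clones (-0.22 ± 0.07, edgeR adjusted p = 0.0939). In both the KO range reached into the WT range, and the 2 highest WT clones were 1A and 2D. DESeq2 called Mrpl11, Mrpl27 and Mrpl28 lower beside Mrpl34 and Mrps21.

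**Figure D2:**
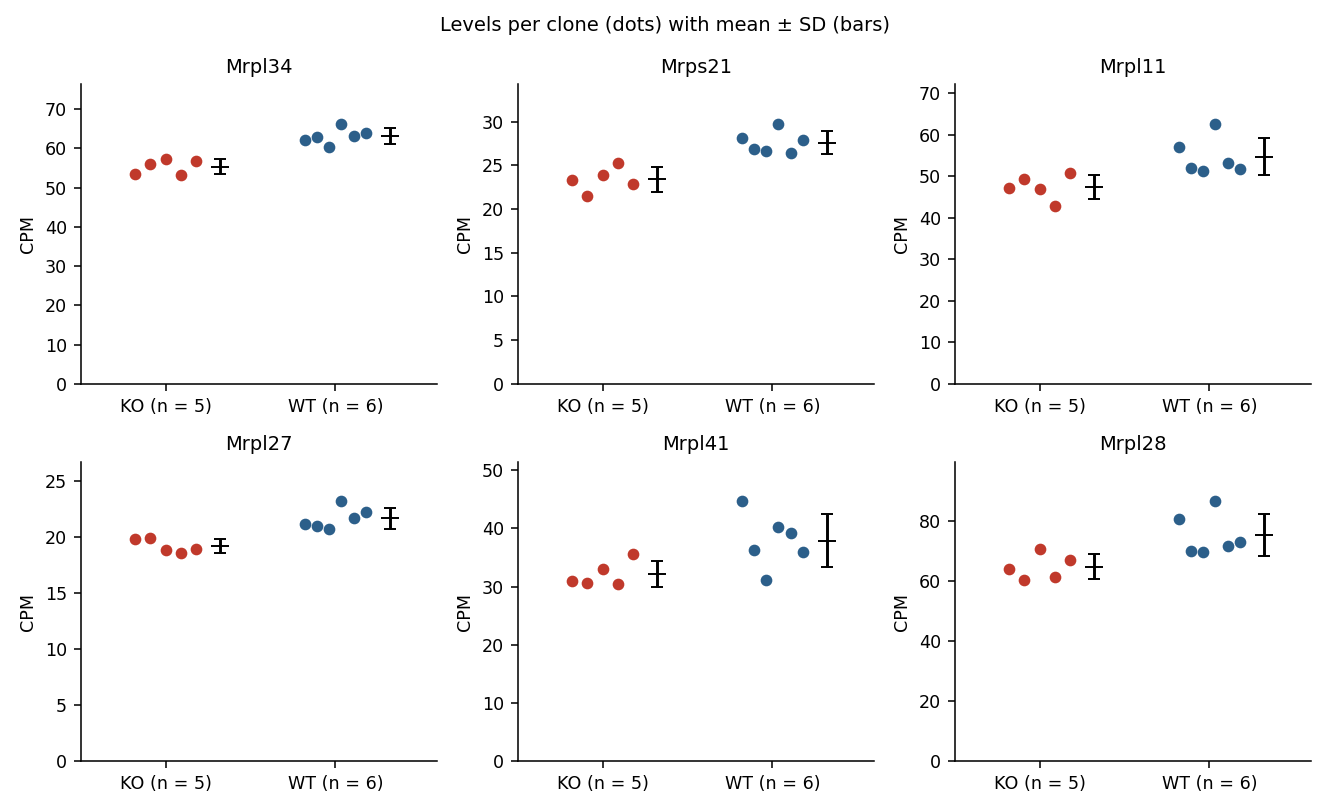
CPM in each clone (dots) with the mean and SD (bars) for 6 genes, KO clones left and WT clones right, each y axis from 0. In Mrpl34, Mrps21, Mrpl11 and Mrpl27 all KO dots lie below all WT dots, and in Mrpl41 and Mrpl28 the groups overlap.

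Other genes placed by their part in the ribosome did not pass the test. The stalk's anchor Mrpl10 averaged 56.9 ± 3.61 CPM in KO and 59.4 ± 4.25 CPM in WT clones. The stalk protein Mrpl12 averaged 79.8 ± 5.93 CPM in KO and 85.7 ± 14.1 CPM in WT clones, the wide WT spread coming with 113.4 CPM in WT 2D. Mrpl22 and Mrpl24, relatives of bacterial proteins around the tunnel through which new proteins leave, had log2 fold changes of -0.17 ± 0.10 and -0.05 ± 0.08 (edgeR adjusted p = 0.345 and 0.754). Mrps12, from the site where codons are read, was at -0.15 ± 0.09 (edgeR adjusted p = 0.386). Mrpl58, which releases stalled ribosomes, was at 0.01 ± 0.09 (edgeR adjusted p = 0.981). Mrpl46 and Mrps11, the overlapping pair, were at -0.15 ± 0.10 and -0.08 ± 0.05 (edgeR adjusted p = 0.452 and 0.370).

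The highest fold changes were not called. Mrpl48 had 0.46 ± 0.21 (edgeR adjusted p = 0.262), Mrpl23 0.45 ± 0.22 (0.278), Mrps18b 0.16 ± 0.09 (0.367) and Mrps14 0.10 ± 0.06 (0.393). Mrpl23, the relative of a bacterial protein at the tunnel exit, rests on 10 to 20 counts per clone, and an annotated pseudogene copy (Mrpl23-ps1) makes its level uncertain. Mrps18b encodes a mammalian form of S18. It stood at 25.4 to 32.5 CPM with a median of 30.1 in KO and 22.3 to 31.4 CPM with a median of 26.2 in WT clones. Mrps14 stood at 72.6 to 87.0 CPM in KO and 66.3 to 78.1 CPM in WT clones. Mrpl53 was at 0 or 1 count in every clone and was not tested. Nearly all of its exon bases (695 of 790) are shared with another annotated gene on the same strand, Gm42688.

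Mrpl48 split the WT clones. It stood at 30.7, 30.6, 31.3, 29.4 and 33.0 CPM in KO clones, against 16.4, 28.1, 15.3, 32.4, 28.2 and 14.8 CPM in WT clones. WT 1A, 1C and 2F were far below all other clones, WT 2D lay among the KO clones, and WT 1B and 2E just below them. Its SD of log2 CPM was 0.06 in KO and 0.51 in WT clones. Its neighbours on chromosome 7 were looked at after these values were seen. Coa4 stood at 12.5 to 14.4 CPM in KO and 12.1 to 15.5 CPM in WT clones, and Rab6a, on the opposite strand overlapping 8.68% of the exon bases of Mrpl48, at 138 to 174 CPM in KO and 149 to 202 CPM in WT clones. In neither were WT 1A, 1C and 2F the 3 lowest WT clones. An annotated pseudogene copy of Mrpl48 exists, so reads could be split between them.

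Mrps31 varied among clones of both genotypes. It stood at 87.7, 129.7, 126.2, 108.6 and 88.5 CPM in KO clones, against 82.0, 126.9, 110.4, 84.0, 108.8 and 133.8 CPM in WT clones. KO 3H and 4L and WT 1A and 2D were the 4 lowest of the 11, and the log2 fold change was 0.01 ± 0.16 (edgeR adjusted p = 0.987). Slc25a15, which encodes the mitochondrial ornithine carrier, lies beside Mrps31 on chromosome 8 on the opposite strand with 12763 bases between them. Slc25a15 stood at 111.3, 222.5, 201.4, 171.8 and 109.6 CPM in KO clones, against 112.2, 264.4, 236.5, 80.0, 188.6 and 274.7 CPM in the WT clones. The same 4 clones were lowest in both genes, and the Pearson r of log2 CPM over the 11 clones was 0.94, given as a description of 2 genes in the same libraries.

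**Figure D3:**
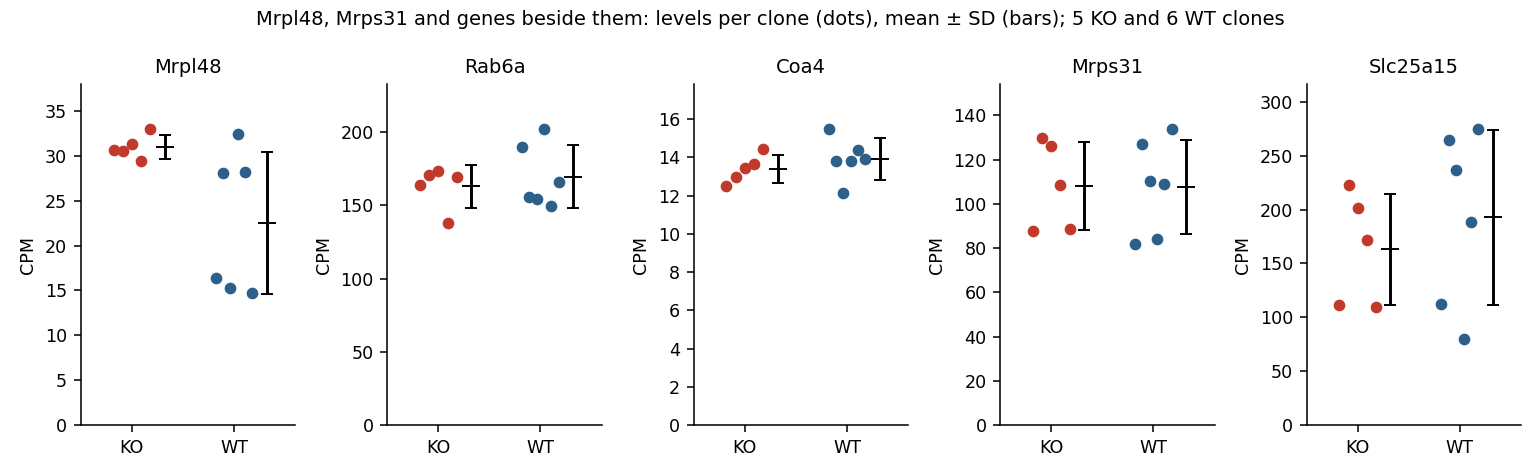
CPM in each clone (dots) with the mean and SD (bars) for Mrpl48 and its neighbours Rab6a and Coa4, and for Mrps31 and its neighbour Slc25a15, KO left and WT right, each y axis from 0. Mrpl48 shows 3 WT clones at 14.8 to 16.4 CPM below all others, and Mrps31 and Slc25a15 both show wide spread in KO and WT clones.

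The genes moved together from clone to clone. The median Pearson r over all pairs of the 76 genes, across log2 CPM in the 11 clones, was 0.56. It was 0.60 within the large subunit, 0.51 within the small subunit and 0.54 between the subunits. Among the 3902 tested genes at similar levels (24.3 to 90.7 CPM) the median over pairs was 0.00, and among cytosolic ribosomal protein genes 0.29. Over the 9 clones other than WT 1A and WT 2D, the median was 0.28 for the 76 genes and 0.36 for cytosolic ribosomal protein genes. These are descriptions of pairs that share libraries and depth.

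**Figure D4:**
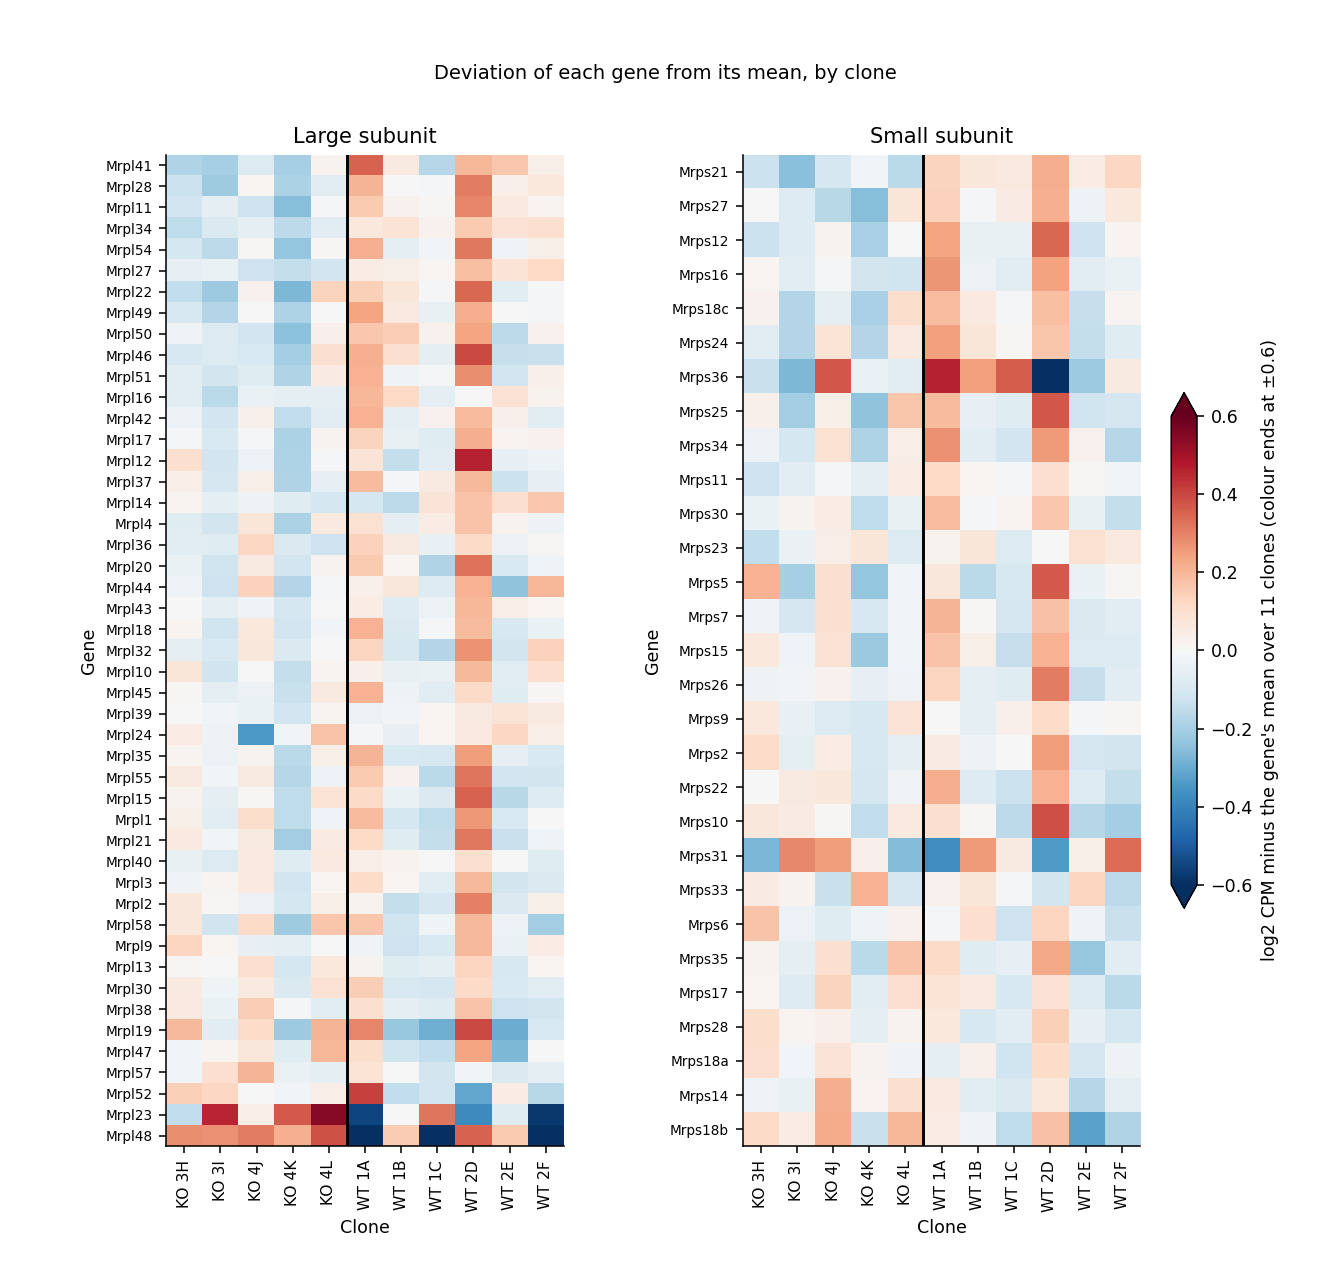
Each row is a gene and each column a clone, KO clones left of the black line and WT clones right. The colour is log2 CPM minus the gene's mean over the 11 clones, and the column of KO 4K is mostly blue and those of WT 1A and WT 2D mostly red.

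KO 4K was the lowest of the 11 clones for 35 of the 76 genes (46.1%), against 12.0% of all tested genes. WT 2D was the highest for 46 and WT 1A for 18, together 84.2%, against 32.2% of all tested genes. These 2 clones were the highest for 42 of 47 large and 22 of 29 small subunit genes. The median deviation from a gene's mean was -0.12 in KO 4K, 0.13 in WT 1A and 0.20 in WT 2D on the log2 scale, while the other 8 clones lay between -0.07 and 0.03. So 1 of 5 KO clones and 2 of 6 WT clones stood apart, and the ranges of the remaining KO and WT clones overlapped.

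Summed over the 48 large subunit genes, levels were 2754, 2626, 2795, 2503 and 2793 CPM in KO clones, against 2994, 2691, 2621, 3191, 2634 and 2727 CPM in WT clones. The groups overlapped, and the median was 2754 CPM in KO and 2709 CPM in WT clones, although the KO mean was 0.959 of the WT mean. The 29 small subunit genes summed to 1455, 1429, 1527, 1371 and 1464 CPM in KO clones, against 1555, 1471, 1411, 1628, 1392 and 1436 CPM in WT clones, with a ratio of means of 0.978 and medians of 1455 CPM in KO and 1454 CPM in WT clones. The large subunit sum was 1.83 to 1.91 times the small in KO clones and 1.83 to 1.96 times in WT clones. Per kilobase of transcript these ratios were 1.89 to 1.96 in KO and 1.88 to 2.02 in WT clones, so the balance of the subunits overlapped between the genotypes on both scales.

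Some blood lineage markers also had their highest or lowest values in these clones. Elane, which encodes the granule protease neutrophil elastase, stood at 49.9, 8.87, 73.8, 2.26 and 147.3 CPM in KO clones, against 373.1, 30.1, 57.2, 825.3, 23.3 and 74.4 CPM in WT clones. The highest 2 clones were WT 2D and WT 1A and the lowest was KO 4K. Elane is 1 of the 11 progenitor markers, which did not all run the same way. Prtn3 was also highest in WT 2D (2419 CPM) and lowest in KO 4K (298.2 CPM). Kit and Cd34 were instead highest in KO 4K (866.5 and 2209 CPM) and lowest in WT 2D (515.0 and 1202 CPM). The 13 late neutrophil markers summed to 16.0 to 149.7 CPM in KO clones, against 1603 CPM in WT 2D and 22.1 to 116.3 CPM in the other WT clones. WT 1A, at 116.3 CPM, was below KO 4L. Of the 13, 8 passed the filter, with a median log2 fold change of -3.33, which was -0.34 without WT 2D. EdgeR called none, with 2 lower and 0 higher at an unadjusted p under 0.05. DESeq2 called 2 lower. Mast cell and basophil markers summed to 2132, 4484, 3252, 4899 and 2958 CPM in KO clones, against 1227, 2630, 2678, 1069, 3892 and 2438 CPM in WT clones. KO 4K was the highest clone for them, and WT 2D and WT 1A were the lowest.

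The 8 proliferation genes summed to 3941 to 4075 CPM in KO and 3964 to 4156 CPM in WT clones. Of the 8, 7 had fold changes below 0, with a median of -0.08 on the log2 scale, and 4 were lower at an unadjusted p under 0.05 without a call by edgeR. DESeq2 called 1 of them lower. Ccnb1, the cyclin of entry into mitosis, had no overlap between its lower KO and its higher WT levels (-0.17 ± 0.05, edgeR adjusted p = 0.0731). Top2a, which untangles replicated DNA, was called higher (0.10 ± 0.03, edgeR adjusted p = 0.0479), but not without WT 1A, WT 2D or KO 4K. What part these lineage and proliferation genes have in the mitoribosomal fold changes was not tested. The medians of the 76 genes without KO 4K, WT 1A or WT 2D are those given above.

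**Figure D5:**
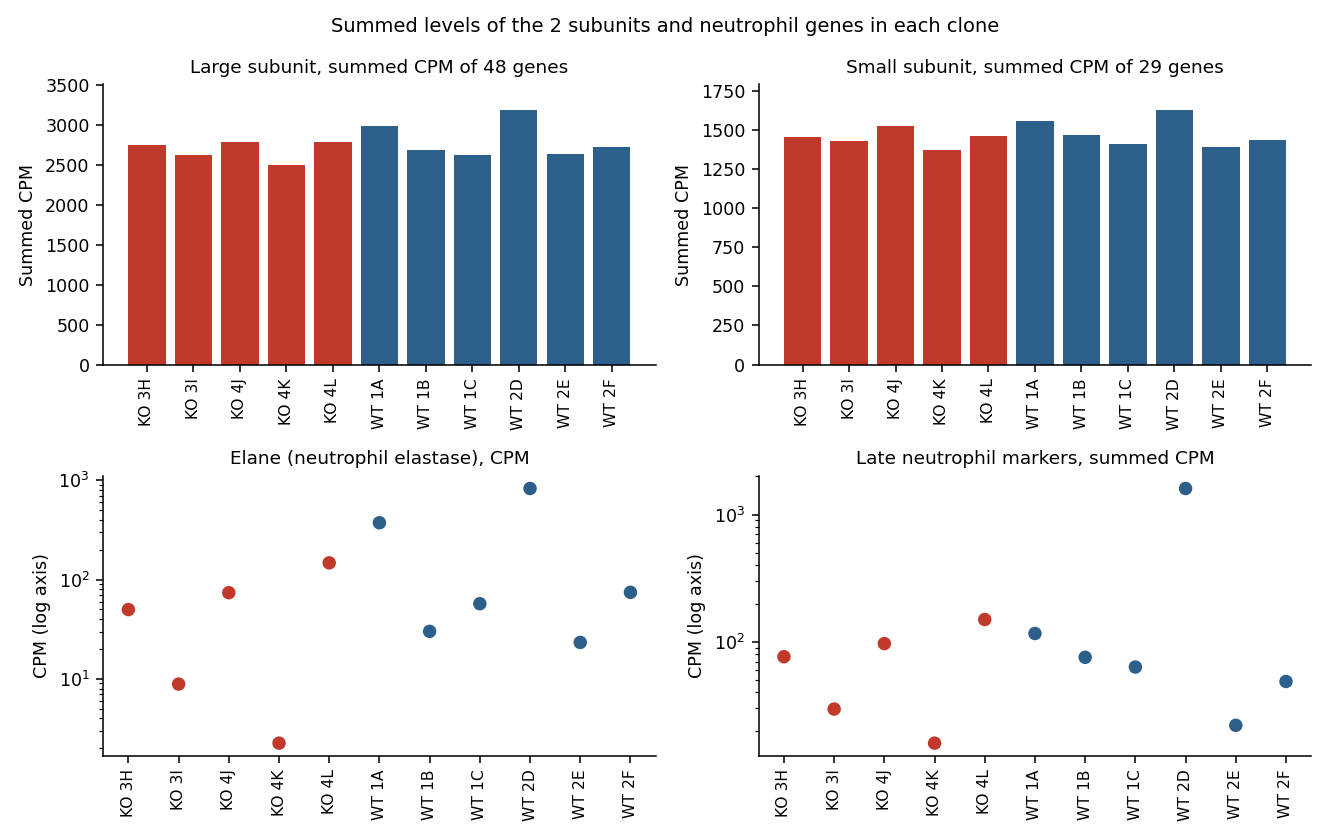
Summed CPM of the large and the small subunit genes (bars from 0) and, on log axes, CPM of Elane and summed CPM of late neutrophil markers (dots) in each clone, KO clones in red on the left and WT clones in blue on the right. The shortest bars are KO 4K at 2503 and 1371 CPM, the tallest WT 2D at 3191 and 1628 CPM, and the same 2 clones are the ends of Elane and of the late neutrophil sum.

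The steadiest genes were Mrpl39, Mrpl40 and Mrps9, with SDs of log2 CPM of 0.05, 0.06 and 0.07 over the 11 clones. Mrpl39 stood at 61.1 to 66.8 CPM in KO and 64.6 to 69.9 CPM in WT clones. Mrps9, the relative of bacterial S9, stood at 77.4 to 87.3 CPM in KO and 79.6 to 89.0 CPM in WT clones. The most variable were Mrpl48 (0.46), Mrpl23 (0.35) and Mrps36 (0.34). Mrps36 stood at 1.53 to 2.38 CPM in KO and 1.08 to 2.54 CPM in WT clones, the lowest in WT 2D, and has 3 annotated pseudogene copies. The median SD was 0.13 for the 76 genes, against 0.13 for the 3902 genes at similar levels and 0.17 for all tested genes. The median was 0.09 within KO and 0.14 within WT clones.

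Levels of different genes were compared only per kilobase of transcript, and they depend on the transcript length taken. Mrpl34 had the fourth highest level of the large subunit, 98.1 CPM per kilobase over its single length of 607 bases, and the highest when all exons of each gene were counted. Mrpl36 stood at 120.8 and 74.6 CPM per kilobase on the 2 scales and Mrpl20 at 123.2 and 56.5, both high on either. Mrpl30 stood at 129.1 on the first and 26.5 on the second, so its place is uncertain. In the small subunit Mrps15 stood at 85.8 and 47.5 and Mrps18c at 68.8 and 40.8 CPM per kilobase, while Mrps31 stood at 71.2 and 32.8 and Mrps17 at 69.7 and 9.32. The lowest were Mrpl53 and Mrpl23 in the large subunit and Mrps36 in the small subunit on both scales, at 0.0237, 0.925 and 2.70 CPM per kilobase on the first. On that scale Mrps33 was next in the small subunit, at 6.67. The order between neighbouring genes was not tested.

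Some of these genes start near a gene on the opposite strand. The share of all protein-coding genes that do so is not given, so the count is no result about the group. A protein-coding gene on the opposite strand started within 1000 bases of 33 of the 77, as with Mrpl36 and Ndufs6 (29 bases apart), a subunit of complex I, Mrpl30 and Mitd1 (66 bases) and Mrpl49 and Fau (59 bases). The start distances ran from 26 to 935 bases, and Mrpl46 and Mrps11 are counted as each other's neighbour. Of the 33 neighbours 31 were tested, and edgeR called none higher or lower. At an unadjusted p under 0.05, 1 was higher and 4 lower, and DESeq2 called 1 higher and 1 lower. Eme1, which shares 7.61% of the exon bases of Mrpl27, was at -0.28 on the log2 scale (edgeR adjusted p = 0.107). The exons of 32 of the 77 genes overlap those of another gene, on the opposite strand for 28. Counting ignored strand, so those levels are uncertain, most of all for Mrps25 (69.8% of its exon bases overlap Nr2c2) and Mrps34 (63.4% overlap Mapk8ip3). The exons of Mrpl34, Mrps21 and Mrpl11 overlap no other annotated gene.

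The rest of the mitochondrial translation machinery showed no called gene by edgeR. Of 5 mitoribosome proteins with other names, 0 were called, all 5 had fold changes below 0, the median was -0.06, and none passed an unadjusted p under 0.05. Ptcd3, the most abundant, averaged 139.3 CPM in KO and 143.0 CPM in WT clones. Of 28 genes for assembly and rRNA modification, 0 were called (2 higher and 1 lower at an unadjusted p under 0.05, and 1 higher by DESeq2), with a median of -0.02. Dhx30, an RNA helicase, averaged 127.3 CPM in KO and 123.7 CPM in WT clones. Of 15 translation factors, 0 were called (1 lower at an unadjusted p under 0.05, none by DESeq2 or limma-voom), with a median of -0.01. Gfm1, the elongation factor that moves the ribosome along, averaged 134.0 CPM in KO and 141.6 CPM in WT clones. Of 10 genes for mitochondrial transcription and mRNA upkeep, 0 were called, with none at an unadjusted p under 0.05 or by DESeq2, and the median was 0.03. Lrpprc, which stabilises mitochondrial mRNAs, averaged 253.7 CPM in KO and 238.0 CPM in WT clones.

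Of 9 tested regulators of nuclear genes for mitochondria, 1 was called higher and 0 lower, against 2.76% and 2.29% of all tested genes. At an unadjusted p under 0.05, 3 were higher and 1 lower, and DESeq2 called 2 higher and 0 lower. Gabpb1, the partner subunit of GABPA, stood at 97.0, 106.4, 97.6, 93.2 and 90.9 CPM in KO clones, against 78.1, 84.2, 79.7, 88.5, 82.8 and 87.2 CPM in WT clones (0.22 ± 0.05 on the log2 scale ± SE, with an edgeR adjusted p of 0.0307). Every KO clone was above every WT clone. The count was 0 to 3 when 1 clone was left out. The call of Gabpb1 ended when title number 1, 3 or 4 was dropped, which leaves fewer clones. Pooling counts by title number or using no filter ended it too, the count being 0 each time. Dropping title number 2 did not change the count, and the random-effect fit gave 3. How many of all tested genes were called higher there is not given. Nrf1, Gabpa and Yy1 were at -0.04 ± 0.03, -0.10 ± 0.04 and 0.01 ± 0.03 (edgeR adjusted p = 0.558, 0.189 and 0.877). Pprc1 was at 0.18 ± 0.05 (0.0624), with every KO clone above every WT clone. Ppargc1b, Esrra and Gabpb2 were at 0.26 ± 0.11, 0.17 ± 0.08 and 0.08 ± 0.04 (0.199, 0.274 and 0.334), and Myc at -0.04 ± 0.09 (0.830). Of the 9, 6 lay above 0 and 3 below, with a median of 0.08. KO clones lay wholly above WT clones in 2 of the 9, against 2.97% of all tested genes.

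Cytosolic ribosomal protein genes were counted in the same fit. Of 79 tested genes, 22 were called higher in KO clones and 0 lower, against 2.76% and 2.29% of all tested genes. At an unadjusted p under 0.05, 37 were higher and 2 lower, and DESeq2 called 32 higher and 1 lower. The share of all tested genes that were higher by either measure is not given, so these counts cannot be set against 2.76%. The median log2 fold change was 0.10. Rps20, Rps15a and Rpl18 were among those called. Rps20, a small subunit protein of the cytosolic ribosome, stood at 338.3, 319.0, 324.9, 309.6 and 320.7 CPM in KO clones, against 288.6, 274.8, 281.0, 268.1, 268.3 and 293.2 CPM in WT clones (0.21 ± 0.03, edgeR adjusted p = 0.00826). All KO clones were above all WT clones. The count of higher genes was 7 to 21 when 1 clone was left out and 8 without all clones of title number 2. It was 1 without those of title number 1, 3 or 4, and reads of multicopy ribosomal protein genes are uncertain. The shares of all tested genes called higher in these settings are not given. Whether the 2 ribosomes differed from each other in their change was not tested.

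Within a genotype, no gene was called between title numbers. In WT clones, number 2 minus number 1, edgeR called 0 of 11900 genes (0%) and 0 of the 76, with 372 genes and 2 of the 76 at an unadjusted p under 0.05, and DESeq2 called 12 genes and 0 of the 76. In KO clones, number 4 minus number 3, edgeR called 0 genes (0%), with 161 genes and 0 of the 76 at an unadjusted p under 0.05, and DESeq2 called 6 genes and 0 of the 76. The median log2 difference of the 76 genes was 0.01 in KO and 0.03 in WT clones, and without WT 2D the WT value was -0.07.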

How the data were processed

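Per the labels' protocols, polyA RNA was made into strand-specific libraries. The authors deposited raw counts, 1 file of Ensembl genes for each clone, made without regard to strand, per the names of the deposited files. The submitters' processing notes name STAR, HTSeq, edgeR and the build mm9 but no versions. Of 37583 IDs, 32860 (87.4%, 99.6% of counts) were named from the GENCODE annotation of GRCm38, which also gave lengths and neighbours. Reads in no gene (5.41 to 6.94%) and ambiguous reads (2.70 to 2.93%) were left out. Both are shares of the gene counts, reads in no gene and ambiguous reads together. Alignments that were not unique were left out too. Per 100 gene counts there were 84.6 to 87.6 of these in KO and 82.6 to 85.3 in WT clones.

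Genotypes were compared by edgeR's quasi-likelihood test (robust fit, TMM, filterByExpr), with Benjamini-Hochberg adjustment over 11900 genes. CPM uses TMM-scaled library sizes, log2 CPM adds a prior count of 2, and an SE is the fold change divided by the root of F. Title numbers were compared in a model of 4 means. Clones of a genotype differed by more than sampling noise (lowest chi-square per gene 15.0). The tests were tried on simulated data. Tools were edgeR 4.0.16, DESeq2 1.42.0 and limma 3.58.1 in R 4.3.3, with Python 3.11.15.

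Members and gene lists were chosen with earlier results of these data known. The rule named called members, those with no overlap, the 4 highest and 4 lowest fold changes, the 4 highest and 2 lowest levels per subunit, the 3 largest and 3 smallest SDs, untested members, members with a known place in the ribosome, and per other list up to 4 called genes or the most abundant. The Mrpl46 and Mrps11 pair, the neighbouring genes, Kit, Cd34 and Prtn3 fall outside it and were chosen after values were seen. The tested regulators of nuclear genes for mitochondria other than Gabpb1 also fall outside it and were named after values were seen. A cytosolic ribosomal protein gene that the rule also named is not reported here.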

Additional observations from a re-analysis of the deposited data

Results flagged for a closer look

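In 3 of the 60 groups of clones looked at, 1 clone stood far from the others of its genotype, where chance alone gives about 1 in 20. Mrpl36 stood at 94.1 CPM in KO 4J, against 79.3 to 82.8 CPM in the other KO clones. Rab6a, the neighbour of Mrpl48, stood at 137.7 CPM in KO 4K, against 164.0 to 173.6 CPM in the other KO clones. Mrpl53 stood at 0.0415 CPM in WT 2F, which is 1 count, against 0 in the other WT clones.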

How the results depend on the processing

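The count of genes called lower was 2, and it was 1 to 2 when 1 clone was left out and 0 without title number 1, 2, 3 or 4 or with counts summed per title number. It was 1 with no filter, 5 with DESeq2 (4 large, 1 small) and 9 with the title number as a random effect (7 large, 2 small), where 1 gene (Mrpl48) was called higher. Over all tested genes the share called lower was 5.22% with DESeq2 and 7.76% with the random effect, against 2.29% with edgeR, so the count rose along with that share. In the random-effect fit the correlation between clones of the same title number was estimated as -0.21. RLE or upper-quartile normalisation, a stricter filter, limma-voom, a non-robust fit, leaving out the 10 most abundant genes and a GC content and length correction each gave 2. Cytosolic ribosomal protein genes called higher were 6 with no filter, 34 with the random effect and 1 with counts summed over each title number. The shares of all tested genes called higher in these settings are not given. The median log2 fold change of all tested members was -0.08 to -0.02 when 1 clone was left out. It was -0.06 without Mrpl23, Mrpl48 and Mrps36, a choice made after seeing the data. Members near 0 changed sign with nothing called. Mrps15 ran from -0.074 to 0.0027, Mrps31 from -0.066 to 0.079 and Mrps33 from -0.034 to 0.054 when 1 clone was left out. Without title number 4, Mrps17 was at -0.011, Mrps15 at 0.0017 and Mrps9 at 0.0011. Without title number 1, Mrps31 was at -0.0093 and Mrps36 at 0.26. Without title number 3, Mrps31 was at -0.0014 and Mrps36 at 0.022, and without title number 2, Mrps33 was at -0.016. Some of these settings leave fewer clones by construction, and the cause of the changes was not tested. No paired analysis was possible because the title numbers are not shared between KO and WT clones.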
